A study of Mus musculus with 7 samples.

Results

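Tubulins, proteins that bind microtubules and genes of the neuronal growth cone were followed by RNA sequencing in mouse cortex at 2 ages. The set held 41 of the 53801 genes in the deposited table, drawn up by function with earlier results of these data known and matched by symbol, and all 41 were found there and passed the filter on low counts. The tissue, labelled cortical plate, came from C57BL/6J mice at embryonic day 14.5 (E14.5, 4 libraries) and at 10.5 months (adult, 3 libraries). The E14.5 libraries all had the genotype Nbs1 fl/+ with Nestin-Cre tg, a transgene whose promoter is active in neural progenitors, with male tissue in replicates 1 and 4 and female tissue in replicates 2 and 3. The adults were all female and all carried CamK II-Cre tg, whose promoter is active in forebrain excitatory neurons, with Atr fl/+ in replicates 1 and 3 and Atr +/+ in replicate 2. A Cre transgene was thus present in all 7 libraries, and the control for it is not analysed here. Libraries were made with TruSeq RNA v2 at E14.5 and TruSeq stranded mRNA in adults, so age cannot be told apart from kit, Cre driver or floxed gene. E14.5 replicate 1 had an earlier plug date than the other E14.5 replicates, and for all of them the labels' dates give fewer days from plug to isolation than the stated stage, which is used here as labelled. Whether each library stands for a separate animal is not stated in the labels, and p-values therefore measure only the spread between these libraries, which may be technical.

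Microtubules are polymers of alpha- and beta-tubulin dimers that grow from templates built on gamma-tubulin, and each of these proteins is encoded by several genes whose products, the isotypes, often differ most in their acidic carboxy-terminal tails. In young neurons that migrate and extend axons, doublecortin, the collapsin response mediator proteins (CRMPs), stathmins and GAP-43 act on the microtubules and membranes of the leading process and growth cone. In mature neurons, structural microtubule-associated proteins (MAPs) stabilise and space the filaments of axons and dendrites, and oligodendrocytes build microtubule-rich processes of their own.

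Library totals ran from 32533065 to 43197226 counts in the embryonic group and from 27327927 to 29996018 in the adult group, and the 41 genes together took 2.09% to 2.38% of them at E14.5 and 1.06% to 1.09% in adults. Levels below are counts scaled to library size with trimmed-mean factors (CPM), or the deposited RPKM where genes are set beside each other. The RPKM is scaled to gene length and to total counts, without these factors. They were 1.12 to 1.15 at E14.5 and 0.844 to 0.854 in adults. A gene's adult level relative to E14.5 is therefore lower in RPKM than in CPM. Map1s, for example, had 46.5 CPM on average at both ages, but 6.60 RPKM at E14.5 and 4.96 in adults. Means are given ± SD over the 4 E14.5 or the 3 adult libraries. Summed levels of most cell type markers differed between the ages. Cortical plate neuron markers summed to 1645 to 1869 CPM at E14.5 and 1709 to 1760 in adults, so the labelled tissue's markers were present at both. The near-equal sums hid opposite changes, since 2 of these 7 markers were called higher in adults and 5 lower (edgeR). Slc17a7 went from 88.4 ± 11.4 to 1183 ± 44.8 CPM, Neurod6 from 595 ± 31.3 to 106 ± 6.58, Neurod2 from 236 ± 28.0 to 64.5 ± 3.04 and Fezf2 from 151 ± 10.3 to 39.1 ± 3.07. Dividing cell markers summed to 1168 to 1360 CPM at E14.5 and 3.38 to 5.11 in adults, and progenitor markers to 1426 to 1548 and 72.1 to 80.7. Oligodendrocyte markers had 39.8 to 46.9 CPM at E14.5 and 6027 to 6264 in adults, astrocyte markers 144 to 194 and 4595 to 4722, and pan-neuronal markers of mature neurons 265 to 332 and 8935 to 9594. Microglia markers summed to 31.7 to 45.4 CPM at E14.5 and 287 to 313 in adults, endothelial markers to 98.4 to 135 and 217 to 235, and erythroid and platelet markers to 182 to 336 and 4.89 to 6.09. Of the 8 oligodendrocyte, 7 pan-neuronal and 6 astrocyte markers all were called higher in adults, and of the 8 dividing cell and 7 progenitor markers all were called lower (edgeR). Of the 5 endothelial markers, Flt1 and Slco1a4 were called higher, Cldn5 and Pecam1 lower, and Tek was not called. Of all marker genes, Hba-x in adults was the only one at 0 in every library of an age. Whole tissue was sequenced, so fewer cells of a type and less RNA per cell cannot be told apart in any of the results below.

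The last coding bases of a tubulin gene encode the tail. The 60 coding bases before the stop codon are shown from GENCODE M21 (GRCm38) for 5 beta-tubulins, the 4 with the largest shares of beta-tubulin RPKM at E14.5 and Tubb4a, which had the largest share in adults, so that the isotypes that changed places can be set beside each other. Capitals mark bases that differ from Tubb5 or have no counterpart in it. Tubb5 lies at chr17:35833921-35838306 (minus strand), Tubb2a and Tubb2b are neighbours at chr13:34074274-34078007 and chr13:34126748-34130466 (both minus), Tubb3 lies at chr8:123411424-123422015 (plus) and Tubb4a at chr17:57080066-57087782 (minus).
Tubb5: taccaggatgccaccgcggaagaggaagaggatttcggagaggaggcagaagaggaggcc
Tubb2a: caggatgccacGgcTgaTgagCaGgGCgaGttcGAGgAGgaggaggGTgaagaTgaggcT
Tubb2b: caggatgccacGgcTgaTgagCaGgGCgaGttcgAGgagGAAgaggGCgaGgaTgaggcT
Tubb3: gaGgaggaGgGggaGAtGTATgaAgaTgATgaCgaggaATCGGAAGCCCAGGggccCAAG
Tubb4a: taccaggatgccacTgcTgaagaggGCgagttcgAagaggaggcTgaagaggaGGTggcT
Over whole coding sequences Tubb2a and Tubb2b were 96.5% identical, Tubb4a and Tubb5 84.3%, and Tubb3 and Tubb4a 83.4%. Gaps were left out of these values. The last 60 coding bases were aligned on their own, with gaps counted as differences. Their identity was 95% for the first pair, 83.3% for the second and 40% for the third. By these unlike measures the ends were much less alike than the whole in the last pair and hardly less alike in the others. Tubb3 has 450 codons before the stop and Tubb4a 444, so their last 60 bases do not match position by position. Among the alpha-tubulins, Tuba1a was 98.3% identical to Tuba1b and 97.6% to Tuba1c, but 85.3% to Tuba4a. In the 60 bases shown, Tubb4a differed from Tubb5 at 10 bases, Tubb2a at 17, Tubb2b at 18 and Tubb3 at 32.

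The 2 ages were compared to ask which of these genes distinguish embryonic from adult cortex. Most differed, in both directions, and all families but the CRMPs and growth-cone genes held members called in both directions: the abundant embryonic alpha- and beta-tubulins, doublecortin and the CRMPs fell, while Tuba4a, Tubb4a, most structural MAPs and Dclk1 rose. Of the 41 genes, 17 were higher in adults, 20 were lower and 4 (Tubb4b, Map1s, Stmn2 and Gap43) were not called (edgeR quasi-likelihood F test with Benjamini-Hochberg adjustment over all genes, adjusted p under 0.05). Among all 20800 genes tested, 86.4% were called, 41.7% higher and 44.7% lower, so the number of members called is close to this background. A change beyond 2-fold was called for 12 higher and 16 lower members, where 24.6% of all genes were called higher, 22.7% lower and 47.2% in either direction. The median absolute log2 fold change was 1.78 over the members and 1.13 over all genes, and the medians with sign were -0.21 and -0.08. For the 37 called members the lowest library of one age lay above the highest of the other, as it did for 85.3% of all genes. These 37 kept their direction and call under all 20 alternative settings, although total-count scaling moved the median of all genes to -0.49 and the share of calls that were higher, over all genes, from 48.3% to 37.1%. That share was 49.8% under RLE scaling, 44.7% under upper-quartile scaling and, under limma-trend on RPKM, 37.0% or 36.9%.

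**Figure D1:**
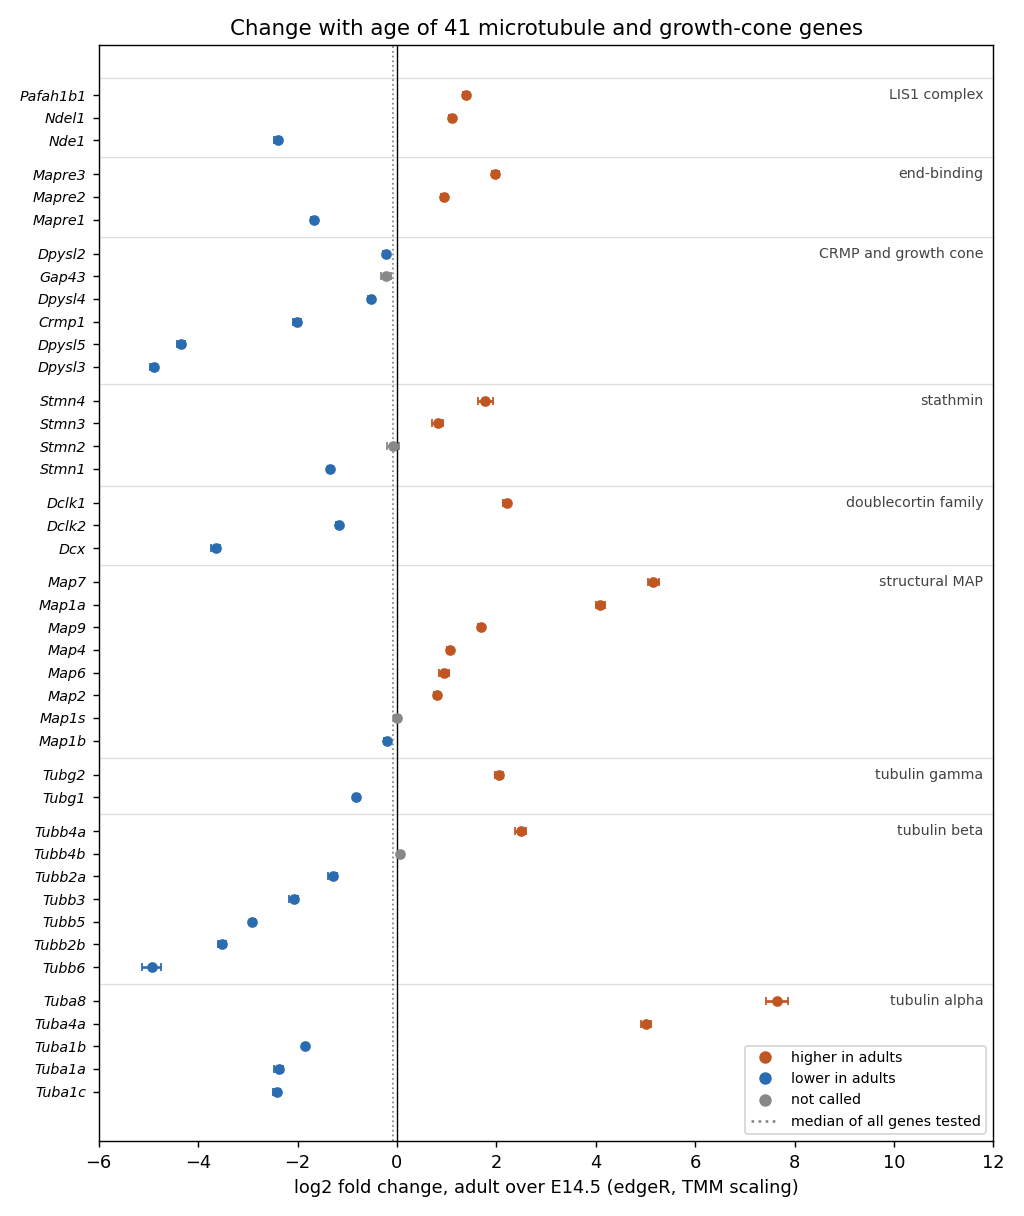
Log2 fold change of each of the 41 genes, adult over E14.5, from edgeR with TMM scaling (points, with the standard error as bars), grouped by role. Orange genes were called higher in adults (17), blue genes lower (20) and grey genes were not called (4), and most families hold both colours. The fitted value of Tuba8 rests on 8 counts over the E14.5 libraries.

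The 3 alpha-tubulins that dominate in the embryo, which lie near each other on chromosome 15, fell and the 2 others, Tuba4a on chromosome 1 and Tuba8 on chromosome 6, rose. Tuba1a, the main alpha-tubulin of postmitotic neurons during development, had 1724, 1537, 1849 and 1513 CPM in E14.5 replicates 1 to 4 and 308, 350.2 and 299 in adult replicates 1 to 3. Every adult library was below every E14.5 library, 5.19-fold on the fitted scale (log2 fold change -2.38, SE 0.090, edgeR adjusted p = 6.8e-10). Tuba1b, expressed widely in dividing and resting cells, had 651, 621, 652 and 644 CPM at E14.5 and 179, 188 and 169 in adults (log2 fold change -1.84, SE 0.055, edgeR adjusted p = 9.7e-11). For Tuba1c, a close relative of both, the levels were 965, 897, 945 and 961 CPM and then 168, 189 and 170 (log2 fold change -2.42, edgeR adjusted p = 3.4e-11). Neither Tuba1b nor Tuba1c overlapped between the ages. Tuba4a, an alpha-tubulin that is made without the terminal tyrosine that most other alpha-tubulins carry, had 13.3, 15.8, 14.8 and 18.4 CPM at E14.5 and 481, 546 and 486 in adults. It rose 32.4-fold (log2 fold change 5.02, SE 0.10, edgeR adjusted p = 6.9e-12), and no adult library came near the embryonic range. Exons of Stk16 on the opposite strand cover 37.3% of Tuba4a exon bases, and the E14.5 kit does not mark strand, so reads of the overlap cannot be assigned at that age. Stk16 itself went from 65.6 ± 3.13 CPM at E14.5 to 41.2 ± 2.08 in adults, and its part in the Tuba4a values was not tested. Tuba8, a divergent alpha-tubulin, was nearly unread at E14.5, with 2, 3, 1 and 2 counts against 305, 209 and 231 in adults, a ratio of 216 after depth was taken into account (95% exact interval 109 to 503, counting error only).

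Among the beta-tubulins 5 fell, 1 rose and 1 was not called, where 86.4% of all genes were called, 41.7% higher and 44.7% lower. Tubb5, the widely expressed isotype, had 3041, 2924, 3134 and 3027 CPM at E14.5 and 399.9, 417 and 393 in adults (log2 fold change -2.91, SE 0.055, edgeR adjusted p = 4.3e-12). Tubb2b, needed for neuronal migration, had 2040, 1825, 2201 and 1943 CPM at E14.5 and 177, 169 and 177 in adults. It fell 11.48-fold (log2 fold change -3.52, SE 0.076, edgeR adjusted p = 9.9e-12), whereas its near copy Tubb2a, with 786, 678, 862 and 703 CPM at E14.5 and 307, 314 and 305 in adults, fell 2.45-fold (log2 fold change -1.30, SE 0.082, edgeR adjusted p = 5.2e-08). Tubb3, the neuron-specific isotype used as a marker of young neurons, had 1057, 896, 1119 and 940.0 CPM at E14.5 and 233, 259 and 223 in adults (log2 fold change -2.07, edgeR adjusted p = 2e-09). Tubb6, a minor isotype in brain, was low throughout, with 20.8 ± 3.07 CPM at E14.5 and 0.673 ± 0.163 in adults (log2 difference -4.94, edgeR adjusted p = 7.6e-10). In all 5 the lowest E14.5 library was above the highest adult one, and the ages did not overlap for 85.3% of all genes. Tubb4a, the isotype of mature neurons and of oligodendrocytes, went the other way, with 147, 105, 142 and 117 CPM at E14.5 and 717, 764 and 669.9 in adults. It rose 5.61-fold (log2 fold change 2.49, SE 0.11, edgeR adjusted p = 2.2e-09), and oligodendrocyte and pan-neuronal markers rose between the same libraries, whose part in the Tubb4a change was not tested. Tubb4b, an isotype found in most tissues, gave 173 to 182 CPM at E14.5 and 175 to 196 in adults, and the ages overlapped (log2 fold change 0.07, SE 0.050, edgeR adjusted p = 0.21). Its call and direction turned with the setting. It was called higher with RLE scaling (log2 fold change 0.12, edgeR adjusted p = 0.0427), with DESeq2 (0.12, adjusted p = 0.0385) and without adult replicate 1 (0.12, edgeR adjusted p = 0.0408). It was called lower with total counts only (-0.35, edgeR adjusted p = 5.38e-05) and with both limma-trend settings (limma adjusted p = 0.000104 and 0.000106), and it was not called in 14 of 20 settings (adjusted p over all settings 5.38e-05 to 0.906).

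Per length and relative to total counts, the tubulin pool was smaller in adults, and its isotypes stood in other proportions. The summed RPKM of the 5 alpha-tubulins was 1897 ± 121 at E14.5 and 416 ± 26.5 in adults, and that of the 7 beta-tubulins 3332 ± 243 and 787 ± 27.7. Within the alpha pool, Tuba4a took 0.207%, 0.269%, 0.223% and 0.309% of the RPKM in the E14.5 libraries and 27.4%, 27.9% and 28.2% in the adults. The share of Tuba1a was 54.7 ± 2.16% at E14.5 and 36.1 ± 0.603% in adults, and that of Tuba1c 24.6 ± 1.26% and 15.7 ± 0.274%. The share of Tuba1b was 20.5 ± 0.876% and 19.5 ± 0.617%, a difference near the spread between libraries in this unit, but it fell by 4.69 percentage points by RPM and by 5.78 (50.1 ± 0.689% to 44.3 ± 0.355%) with matched pseudogene counts added. By the deposited RPKM Tuba4a went from the fourth to the second place among alpha-tubulins, behind Tuba1a at both ages, whereas with pseudogene counts added it stood in the third place in adults, behind Tuba1b and Tuba1a. Within the beta pool, Tubb4a took 2.18%, 1.74%, 1.996% and 1.84% at E14.5 and 35.0%, 35.4% and 33.6% in adults, the largest beta share at that age. Tubb5 and Tubb2b, the 2 largest at E14.5, had 31.0 ± 1.35% and 29.6 ± 0.366% there and 13.1 ± 0.126% and 8.21 ± 0.538% in adults. Tubb3 went from 18.2 ± 0.628% to 13.7 ± 0.487%, Tubb2a from 15.9 ± 0.652% to 20.7 ± 0.519% and Tubb4b from 2.91 ± 0.256% to 9.64 ± 0.488%. Tubb6 and Tuba8 stayed under 1.12% of their pools in every library. These shares are a description of the deposited RPKM and were not tested.

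**Figure D2:**
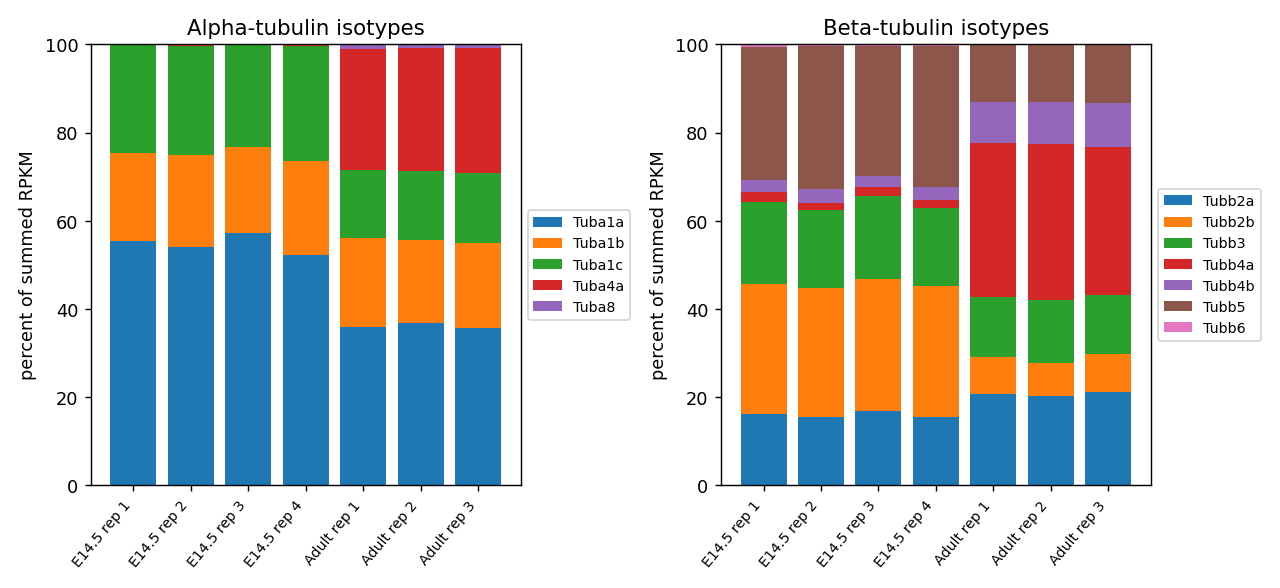
Share of each isotype in the summed RPKM of the 5 alpha-tubulins (left) and 7 beta-tubulins (right), in percent, 1 stacked bar per library. Tuba4a and Tubb4a are thin slices in the 4 E14.5 bars, at most 0.309% and 2.18%, and wide ones in the 3 adult bars, at least 27.4% and 33.6%.

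Tubulin transcripts share sequence with each other and with pseudogenes, and the authors' counting could divide such reads. Of the 50-base words of their transcripts, 75.5% in Tuba1a, 75.1% in Tuba1b, 52.7% in Tuba1c, 49.6% in Tubb2a, 41.3% in Tubb4b and 36.9% in Tubb2b also occur in other genes. The share was 0% in Tubb3, 0.184% in Tubb4a and 0.0892% in Tubb5, so these genes held few or no exact 50-base matches to others. Matches with mismatches, and how reads were in fact divided, were not examined. A search among annotated pseudogenes of any type (at least 90% identity over at least 50% of their length) matched 19 to 8 members. The 7 matched to Tuba1b held more counts than the gene, 109056, 82193, 95123 and 110979 at E14.5 and 12053, 12071 and 11268 in adults, which was 368% and 274% of the counts of Tuba1b itself. Those matched to Tuba1c held 41.1% and 45.04% of its counts, those of Tubb4b 44.0% and 37.9%, Tubb2a-ps2, whose closest parent was Tubb2b, 13.3% and 20.8%, and those of Tuba1a 10.4% and 10.8%. The levels of these genes are therefore uncertain, Tuba1b most of all. With pseudogene counts added, an alternative chosen after seeing the data, each was still called lower in adults, with log2 fold changes of -2.17 for Tuba1b, -2.37 for Tuba1a, -2.38 for Tuba1c and -3.43 for Tubb2b, and Tubb4b was not called (0.0063, edgeR adjusted p = 0.906). The alpha shares moved more: Tuba1b then held 50.1% at E14.5 and 44.3% in adults, Tuba1a 31.6% and 24.3%, and Tuba4a 0.132% and 16.9%.

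**Figure D3:**
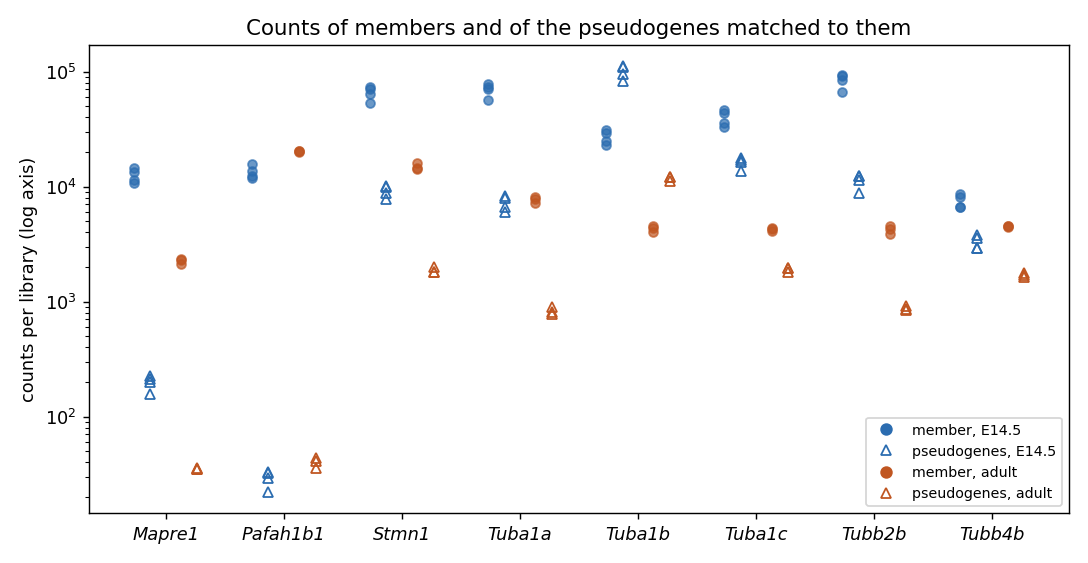
Deposited counts per library (log axis) of the 8 members that have matched pseudogenes (filled circles) and of those pseudogenes summed (open triangles), E14.5 in blue and adult in orange. For Tuba1b the triangles lie above the circles in all libraries, and for the other members below them.

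The gamma-tubulins, which nucleate microtubules, exchanged places. Tubg1, the widely expressed gene, had 61.9, 65.8, 62.7 and 64.2 CPM at E14.5 and 35.9, 38.4 and 33.9 in adults (log2 fold change -0.82, SE 0.055, edgeR adjusted p = 8.6e-08). Tubg2, known for its expression in brain, had 11.7, 9.79, 12.2 and 9.84 CPM and then 45.9, 46.7 and 42.9 (log2 fold change 2.05, SE 0.086, edgeR adjusted p = 1.5e-09). Per length, Tubg1 stood at 31.8 ± 0.707 RPKM and Tubg2 at 7.02 ± 0.838 at E14.5, and at 13.5 ± 0.764 and 21.9 ± 0.857 in adults. Of 50-base words, 11.1% in Tubg1 and 14.3% in Tubg2 are shared with other genes, nearly all with each other.

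The structural MAPs were mostly higher in adults, with 6 rising, 1 falling and 1 not called. Of all genes tested, 86.4% were called, 41.7% higher and 44.7% lower. Map1a, which binds microtubules in mature dendrites and axons, had 81.7, 77.2, 79.4 and 100.3 CPM at E14.5 and 1461, 1448 and 1414 in adults. It rose 17.02-fold (log2 fold change 4.09, SE 0.090, edgeR adjusted p = 1.2e-11). Map1b, its relative in growing axons, had 972, 944, 996 and 960 CPM at E14.5 and 795, 858 and 858 in adults, a small fall (log2 fold change -0.21, SE 0.051, edgeR adjusted p = 0.0026). Per length, Map1a went from 7.87 ± 0.9504 to 100.5 ± 1.29 RPKM and Map1b from 69.1 ± 1.81 to 44.8 ± 2.001, so their order was the opposite at the 2 ages. Map7, a MAP that recruits kinesin-1, was low at E14.5 with 5.31, 3.60, 4.56 and 3.57 CPM and stood at 156, 148 and 154 in adults (log2 fold change 5.16, SE 0.11, edgeR adjusted p = 8.4e-12). Map2, the dendritic MAP, rose 1.74-fold from 669, 673, 744 and 719 CPM to 1246, 1193 and 1216 (log2 fold change 0.80, edgeR adjusted p = 1e-07). Map9, which acts on spindles in dividing cells, rose from 53.6 ± 1.86 to 173 ± 9.13 CPM, Map4, a MAP of many tissues, from 272 ± 14.2 to 568 ± 11.5, and Map6, which protects microtubules from cold, from 63.3 ± 10.1 to 121 ± 2.59. For Map2, Map4 and Map6 a change beyond 2-fold was not called (edgeR glmTreat adjusted p = 1, 0.10 and 0.76). Map1s, a short relative of Map1a and Map1b, gave 46.5 ± 2.24 CPM at E14.5 and, in adults, 46.5 ± 2.18 (log2 fold change 0.0017, SE 0.056, edgeR adjusted p = 0.98), and it was called lower with total counts only (-0.41, edgeR adjusted p = 4.27e-05), when the table was limited to protein-coding genes (-0.13, edgeR adjusted p = 0.0473) and with both limma-trend settings (limma adjusted p = 0.000247 and 0.000238).

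Because Map1a and Map1b are relatives with opposite directions, the 250 bases before their RefSeq starts (GRCm38.p6) are shown, Map1a at chr2:121289352-121289601 (plus) and Map1b at chr13:99516603-99516852 (minus). Capitals mark 3 short motifs on either strand. The CCAAT box was searched as CCAAT. The TATA box was searched as TATAAA. The GC box was searched as GGGCGG, and adjoining GC boxes can overlap.
Map1a: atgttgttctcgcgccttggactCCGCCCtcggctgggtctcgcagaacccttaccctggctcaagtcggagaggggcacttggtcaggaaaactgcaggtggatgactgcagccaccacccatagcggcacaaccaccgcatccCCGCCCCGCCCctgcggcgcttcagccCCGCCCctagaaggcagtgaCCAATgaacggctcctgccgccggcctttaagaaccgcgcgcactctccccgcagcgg
Map1b: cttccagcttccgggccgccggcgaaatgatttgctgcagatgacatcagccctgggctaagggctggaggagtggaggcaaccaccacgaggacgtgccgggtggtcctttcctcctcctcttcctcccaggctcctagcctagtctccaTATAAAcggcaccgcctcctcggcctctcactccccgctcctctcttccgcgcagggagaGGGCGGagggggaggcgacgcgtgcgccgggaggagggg
Both windows hold a GC box, that of Map1a also a CCAAT box and that of Map1b a TATA box. RefSeq promoters were matched for 29 of the 41 members, 13 called lower, 14 called higher and the rest not called. The CCAAT box was found in 7 of the 13 and 3 of the 14, against 34.5% of all 27025 promoters and 36.0% of 16522 protein-coding ones. The TATA box was found in 4 and 2, against 13.0% and 11.9%, and the GC box in 10 and 6, against 32.9% and 44.3%. A match of these short motifs is a description of the letters and not a site.

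Doublecortin and its relatives, which bind the microtubule lattice, split as well. Dcx, the marker of migrating neurons, had 764, 727, 847 and 746 CPM at E14.5 and 69.5, 57.8 and 57.4 in adults. It fell 12.5-fold (log2 fold change -3.65, SE 0.092, edgeR adjusted p = 2.8e-11), and the ages did not overlap. Dclk1, which joins doublecortin domains to a kinase domain, had 238, 208, 261 and 220.0 CPM and then 1022, 1067 and 1118, a 4.61-fold rise (log2 fold change 2.21, SE 0.077, edgeR adjusted p = 3.4e-10). Dclk2, of the same build, fell 2.25-fold from 200.7 ± 5.66 to 89.3 ± 3.48 CPM (log2 fold change -1.17, edgeR adjusted p = 1.3e-09). Per length, Dcx went from 69.0 ± 4.69 to 4.13 ± 0.459 RPKM and Dclk1 from 17.1 ± 1.73 to 59.3 ± 2.89 RPKM, so Dclk1 was the more abundant of the 2 in adults.

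Stathmins bind free tubulin dimers and favour the shrinking of microtubules. Stmn1, the soluble member found in dividing cells and young neurons, had 1578, 1465, 1663 and 1521 CPM at E14.5 and 626, 615 and 605 in adults, a 2.53-fold fall (log2 fold change -1.34, SE 0.058, edgeR adjusted p = 1.9e-09). It was still the second most abundant of the 41 genes in adults by RPKM, at 272 ± 4.09. Its pseudogene Gm11223 held 14.04% and 12.6% of its counts at the 2 ages. Stmn3 and Stmn4, membrane-bound neuronal stathmins, rose. Stmn3 had 206, 159.5, 212 and 155 CPM at E14.5 and 332, 314 and 323 in adults (log2 fold change 0.82, edgeR adjusted p = 2.7e-05), and Stmn4 had 77.0, 49.1, 76.0 and 52.7 and then 228, 223 and 204 (log2 fold change 1.78, SE 0.15, edgeR adjusted p = 5.3e-07). Stmn2, also called SCG10 and a growth-cone marker, had 376, 253, 360 and 271 CPM at E14.5, a range that enclosed the adult values of 292, 312 and 292 (log2 fold change -0.08, SE 0.13, edgeR adjusted p = 0.57), although it was called lower with total counts only (-0.50, edgeR adjusted p = 0.00455) and with both limma-trend settings (-0.47 in each, limma adjusted p = 0.0114 in each). Its adjusted p ran from 0.00455 to 0.939 over all settings.

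CRMPs couple guidance signals to tubulin. Of the 6 genes in the CRMP and growth-cone group, the 5 CRMP genes fell and none rose, where 86.4% of all genes were called and 44.7% were lower. Dpysl3, which encodes CRMP4, had 1113, 1142, 1234 and 1056 CPM at E14.5 and 35.7, 39.2 and 39.5 in adults. It fell 29.8-fold (log2 fold change -4.90, SE 0.080, edgeR adjusted p = 1.8e-12), from the ninth to the 36th place among the members by RPKM. Dpysl5, which encodes CRMP5, had 520.0, 473, 580 and 521 CPM and then 24.4, 26.3 and 26.4, a 20.4-fold fall (log2 fold change -4.35, SE 0.084, edgeR adjusted p = 4.7e-12). Crmp1 had 783, 683, 860 and 741 CPM and then 193, 192 and 186 (log2 fold change -2.01, edgeR adjusted p = 8.3e-10). Dpysl2 and Dpysl4 fell by less. Dpysl2, which encodes CRMP2 and promotes axon formation, had 163, 161, 171 and 142 CPM at E14.5 and 139, 139 and 132 in adults (log2 fold change -0.22, edgeR adjusted p = 0.0073), and Dpysl4, which encodes CRMP3, fell from 85.8 ± 6.55 to 59.7 ± 2.86 CPM. Gap43, a membrane-associated growth-cone protein that persists at some adult synapses, had 173, 124, 167 and 132 CPM at E14.5 and 129, 130.05 and 125 in adults. The adult values all lay inside the range of the E14.5 libraries, and the difference was not called (log2 fold change -0.22, SE 0.11, edgeR adjusted p = 0.078). It was not called in 11 of 20 settings and was called lower in the others. These were without E14.5 replicate 2 (log2 fold change -0.30, edgeR adjusted p = 0.00953) or replicate 4 (-0.27, 0.0365), no low-count filter (-0.30, 0.00924), upper-quartile scaling (-0.35, 0.0127), total counts only (-0.63, 0.000286), protein-coding genes only (-0.35, 0.0117), the replicate block (-0.28, 0.0169) and both limma-trend settings (-0.62 in each, limma adjusted p = 0.000992 and 0.000994). Over all settings the adjusted p of Gap43 ran from 0.000286 to 0.19.

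End-binding proteins sit on the growing ends of microtubules. Mapre1 (EB1), abundant in cycling cells, had 299, 293, 301 and 299 CPM at E14.5 and 90.2, 91.8 and 97.8 in adults (log2 fold change -1.67, SE 0.048, edgeR adjusted p = 6.6e-11). Mapre3 (EB3), the neuron-enriched form, had 49.4, 44.9, 49.2 and 42.0 CPM and then 194, 183 and 172 (log2 fold change 1.98, SE 0.067, edgeR adjusted p = 2.7e-10). Mapre2 rose 1.92-fold, from 157 ± 12.3 to 300.9 ± 10.0 CPM. Dividing cell markers fell between the same libraries as Mapre1, and their part in its change was not tested.

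The LIS1 complex links dynein to the nucleus and centrosome of migrating neurons. Pafah1b1, which encodes LIS1, had 305, 323, 324 and 327 CPM at E14.5 and 794, 863 and 856 in adults (log2 fold change 1.39, SE 0.052, edgeR adjusted p = 6.4e-10). Its partners, a pair of paralogs, went opposite ways. Nde1, which acts in progenitor mitosis, had 116, 129, 113 and 131 CPM and then 22.4, 24.5 and 22.7 (log2 fold change -2.40, SE 0.072, edgeR adjusted p = 1e-10), while Ndel1, which acts in neuronal migration, had 47.8, 48.0, 49.5 and 45.3 and then 98.0, 107 and 102 (log2 fold change 1.10, SE 0.049, edgeR adjusted p = 2.7e-09).

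**Figure D4:**
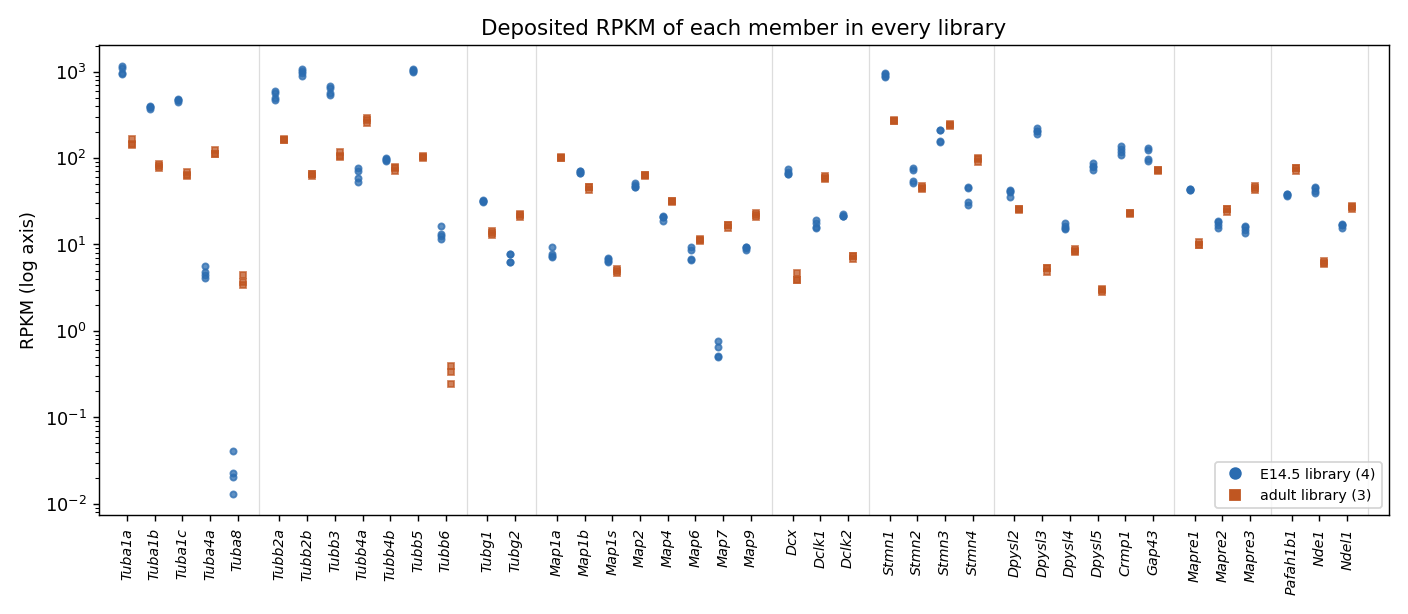
Deposited RPKM of the 41 genes in each library on a log axis, E14.5 libraries as blue circles and adult libraries as orange squares, ordered by role. At E14.5 Tuba1a, Tubb5, Tubb2b and Stmn1 stand at 916 to 1039 RPKM on average, and in adults no member passes 300 RPKM.

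Ranked by RPKM, the most abundant members at E14.5 were Tuba1a (1039 ± 104), Tubb5 (1030.4 ± 31.2), Tubb2b (987 ± 80.0) and Stmn1 (916 ± 52.0), and the first 3 differed by less than their spread. The place of Tuba1a is uncertain, because with matched pseudogene counts added Tuba1b led the alpha-tubulins at both ages. In adults the order began with Tubb4a (273 ± 16.3), Stmn1 (272 ± 4.09) and Stmn3 (241 ± 7.18), of which the first 2 also lay within their spread. Tubb4a was in 17th place and Tuba4a in 39th at E14.5, and Tuba4a was in sixth place in adults. Dpysl5 went from 14th to 40th and Dcx from 16th to 38th.

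Ratios within a library do not depend on how libraries are scaled, and 7 pairs of relatives were compared in this way (log2 of the RPM ratio, with 0.5 added to each value). Each pair joined a member that rose, or fell less, with one that fell or fell more, and was chosen with these directions known, so a shift in every pair follows from the choice and its test is no independent evidence. In all 7 the sign of this ratio, which is not per length, differed between the ages, and no adult library overlapped an E14.5 one. Tuba4a over Tuba1a was -6.98, -6.57, -6.92 and -6.33 at E14.5 and 0.64, 0.64 and 0.70 in adults, a shift of 7.36. Tuba4a exceeded Tuba1a in adults on this scale, whereas by RPKM it did not. Map1a over Map1b was -3.52 ± 0.18 and 0.78 ± 0.083, a shift of 4.30, and Tubb4a over Tubb3 was -2.98 ± 0.099 and 1.59 ± 0.031, a shift of 4.56. Mapre3 over Mapre1 shifted by 3.64, Ndel1 over Nde1 by 3.46, Tubg2 over Tubg1 by 2.83 and Tubb2a over Tubb2b by 2.23. In each pair the exact two-sided permutation test gave p = 0.0571, also after Benjamini-Hochberg adjustment over the 7 pairs, which is the smallest p that 4 against 3 libraries allow.

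**Figure D5:**
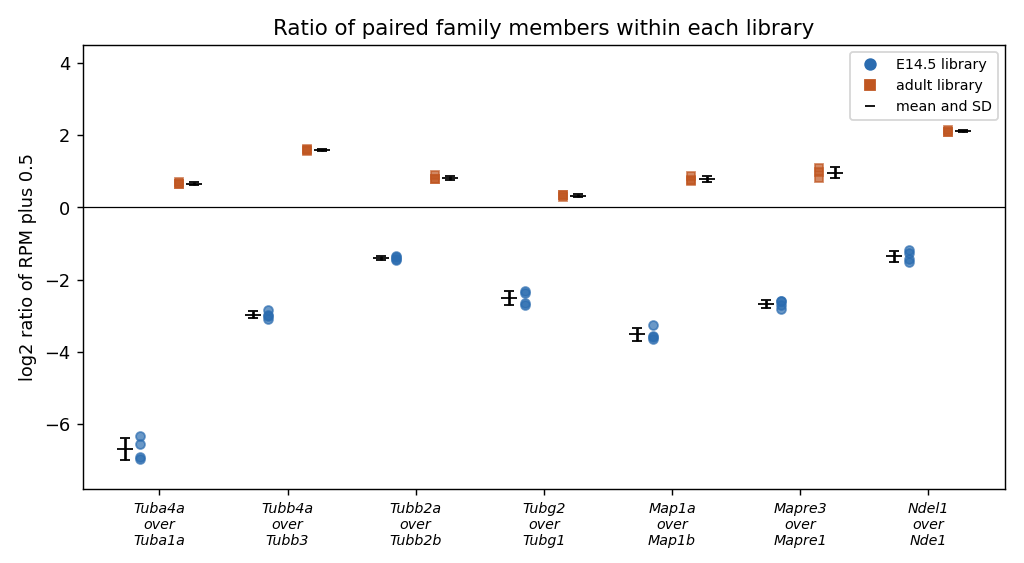
Log2 ratio of RPM plus 0.5 for 7 pairs of related genes, 1 point per library (E14.5 blue circles, adult orange squares), with mean and SD in black. All E14.5 points lie below 0 and all adult points above it.

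Other genes of the microtubule and growth-cone pathways were read from the same fit, in lists chosen by function. The counts of these lists, here and in the paragraphs on growth-cone genes and on the gamma-tubulin ring complex, stand beside all genes tested, of which 86.4% were called, 41.7% higher and 44.7% lower. Tubulin-modifying enzymes split evenly, with 9 of 20 higher, 10 lower and 1 not called, which is close to the shares over all genes (median log2 fold change -0.16, all genes -0.08). Ttll7, which adds glutamate chains to beta-tubulin, rose from 14.3 ± 1.32 to 413 ± 20.3 CPM (28.9-fold) and Ttll11, another glutamylase, from 2.15 ± 0.443 to 43.2 ± 1.12. Vash2 and its partner Svbp, which form a carboxypeptidase that removes the terminal tyrosine of alpha-tubulin, fell, Vash2 from 84.7 ± 5.50 to 3.46 ± 0.324 CPM and Svbp from 40.5 ± 2.60 to 6.77 ± 0.428. In a list of 11 genes drawn up as other lattice-binding proteins, 6 rose and 5 fell (median 0.39). The 6 include Ensa (log2 fold change 1.27), which is not established as a lattice-binding protein. Tppp, a tubulin polymerisation protein of oligodendrocytes, rose 91.9-fold from 8.45 ± 0.339 to 777 ± 23.3 CPM, and Map7d2 15.8-fold. Prc1 and Tpx2, which act on the mitotic spindle, fell from 123 ± 9.94 to 0.636 ± 0.104 CPM and from 159 ± 13.2 to 2.14 ± 0.107. The rise of Tppp went with the oligodendrocyte markers and the fall of Prc1 and Tpx2 with the dividing cell markers given above, and the part of either in these changes was not tested.

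Of 16 other growth-cone genes, 11 fell, 4 rose and 1 was not called (median -1.07), where 44.7% of all genes were lower and 41.7% higher. Marcksl1 and Marcks, membrane-bound substrates of protein kinase C, fell from 979 ± 37.9 to 28.2 ± 3.07 CPM and from 967 ± 39.5 to 168 ± 3.57. Pfn2, the brain profilin, and Nrn1, which encodes neuritin, rose from 240 ± 8.59 to 625 ± 15.9 CPM and from 47.9 ± 2.83 to 179 ± 4.08. Exons of Fars2 on the opposite strand cover 22.3% of Nrn1 exon bases, and the part of such reads in its values was not tested. Plus- and minus-end proteins were balanced, 8 higher and 7 lower of 15 (median 0.29), with Tacc1 (61.4 ± 4.89 to 232 ± 4.36 CPM) and Clip4 (20.6 ± 2.69 to 59.1 ± 0.813) rising most and Tacc3 (77.6 ± 3.39 to 5.50 ± 0.342) and Slain2 (68.6 ± 3.74 to 37.6 ± 0.847) falling most. Of 7 severing enzymes, 5 fell and 1 rose (median -0.79). Fignl1 fell from 35.7 ± 3.48 to 0.815 ± 0.199 CPM and Spast, the spastin gene, from 177 ± 5.12 to 79.1 ± 3.00, while Katnal1, a katanin-like subunit, rose from 36.0 ± 2.17 to 74.9 ± 4.84.

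The gamma-tubulin ring complex held 1 higher, 4 lower and 3 uncalled genes of 8 (median -0.22), where 41.7% of all genes were higher and 44.7% lower. Nedd1, which targets the complex to centrosomes and spindles, fell from 38.4 ± 3.64 to 4.84 ± 0.316 CPM and Tubgcp2 from 77.2 ± 3.11 to 46.0 ± 2.03, while Tubgcp4 rose from 26.0 ± 2.36 to 40.7 ± 2.13. Exons of Trp53bp1 and Zscan29 on the opposite strand cover 26.05% of Tubgcp4 exon bases. As with Tuba4a, reads of the overlap cannot be assigned at E14.5, and their part in the rise was not tested. With total counts only, 7 of these 8 were lower. Tubulin folding cofactors split 3 and 3 of 7 (median -0.08): Tbce and Tbcel rose 2.04-fold and 1.70-fold, and Tbca and Tbcd fell 2.56-fold and 1.57-fold. LIS1 and NDEL1 partners split 4 and 4 of 8 (median -0.12). Bicd1 rose 1.99-fold and Disc1, at 1.05 ± 0.214 and 1.64 ± 0.315 CPM, 1.55-fold, while Nudcd2 fell 3.61-fold and Nudcd1 1.58-fold. With total counts only, 2 of the 8 were higher. Of 6 further tubulin genes, 3 passed the low-count filter, and all 3 fell, among them Tube1 and Tubd1, the centriolar epsilon- and delta-tubulins, 3.43-fold and 1.62-fold.

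Within an age the members varied little, with a median coefficient of variation of 7.73% at E14.5 and 4.49% in adults. E14.5 replicate 3 had the highest level of 25 of the 41 genes and replicate 2 the lowest of 24. Neuronal growth genes such as Stmn2, Stmn4 and Gap43, picked after their values were seen, were higher in replicates 1 and 3 than in 2 and 4, as their levels above show. The sum of the pan-neuronal markers followed the same split, with 305, 265, 332 and 276 CPM in replicates 1 to 4. Rbfox3 among them did not, with 54.3, 59.7, 67.7 and 66.5 CPM. Nor did the sum of the cortical plate neuron markers, with 1645, 1705, 1869 and 1667 CPM. The sum of the dividing cell markers ran opposite to the split, with 1175, 1360, 1168 and 1357 CPM in replicates 1 to 4. The progenitor markers summed to 1426, 1515, 1475 and 1548. Ganglionic eminence markers were highest in replicate 1, with 142, 64.8, 98.2 and 75.2 CPM. The part of these markers in the differences between the E14.5 libraries was not tested. The split did not follow sex, since each side held 1 male and 1 female library. Between the sexes at E14.5, 40 members were tested and 0 were called by edgeR or by DESeq2, where 0.0497% of 20134 genes were called by edgeR. In simulated counts the edgeR sex test recovered 29 of 67 changes of 1.5-fold and 60 of 67 of 2-fold, so small differences could be missed. At an unadjusted p under 0.05 there was 1, Tubb6, with 18.6 CPM in females and 22.9 in males (log2 difference 0.30, edgeR unadjusted p = 0.0436, adjusted p = 1).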

How the data were processed

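Per the labels' protocols, embryonic and adult tissue was collected in RNAlater and total RNA was extracted with Tri Reagent. Tools listed in the submitters' processing notes are TopHat2 2.1.0, bcl2fastq 1.8.4 and featureCounts 1.5.0, with the genome build GRCm38. How featureCounts treated strand and multiply mapped reads, and which annotation it used, is not given in the sources used here. For every gene the authors deposited read counts as whole numbers, RPM and RPKM. In the deposited values, RPM equals counts over the library total, and RPKM rests on 1 length per gene. Of 53801 genes, 53706 were found in GENCODE M21, and 66 had a blank symbol.

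The count test was that of edgeR 4.0.16 under R 4.3.3 (quasi-likelihood F test, TMM factors, filterByExpr with minimum count 10 and minimum total 15, age as the only term, Benjamini-Hochberg adjustment at 0.05 over all genes tested). The glmTreat function, set to a log2 threshold of 1, tested for changes beyond 2-fold, and sex was tested within E14.5. Each standard error was obtained as log2 fold change over the root of F. Pairs were compared with an exact permutation test in SciPy 1.17.1, and shares of RPKM were described without a test. Intervals cover counting error only. Between replicates of an age, chi-square per degree of freedom was 4.44 to 14.4, so no libraries agreed within sampling noise. Pseudogenes and coding sequences were matched with BLAST 2.17.0 and Biopython 1.88, and promoters came from RefSeq. The edgeR age and sex tests were checked on simulated counts. For age, 47 of 67 changes of 1.5-fold and 62 of 67 of 2-fold were recovered, with 8 false calls among 17136 genes. Few genes were changed in the simulation, whereas 86.4% were called between the ages in the data. The check therefore cannot show how the age test and its scaling perform with so many changes.

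All 41 members are named, and of each other pathway list the 2 largest called rises and 2 largest called falls among genes averaging 1 CPM or more. Markers are given as summed levels. The members, the lists and the tests were chosen with earlier results of these data known. Other scalings were RLE, upper quartile and total counts, and the count filter was dropped or replaced by a mean of 1 CPM. Other tools were DESeq2 1.42.0 and limma-trend (limma 3.58.1) on log2 RPKM with 0.5 or 0.1 added. Further alternatives left out each library, kept females only, added sex or the replicate number to the model, or kept protein-coding genes only. Adding pseudogene counts was chosen after the data were seen.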

Additional observations from a re-analysis of the deposited data

How the results depend on the processing

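All 37 called members kept their direction and call in 20 of 20 settings. Among the 4 others, Tubb4b turned to -0.35 with total counts only and -0.34 and -0.35 with limma-trend on RPKM plus 0.5 and 0.1, and Map1s to -0.41, -0.38 and -0.41 in these settings and to -0.13 with protein-coding genes only. Calls ran from 17 to 18 higher and from 20 to 24 lower, the latter with total counts and both limma-trend settings. Leaving out 1 library each gave 17 to 18 higher and 20 to 21 lower. The replicate numbers were not taken as a pairing, since the 2 ages held 4 and 3 libraries of unlike genotype. Same-numbered libraries of the 2 ages had correlations of deviations of 0.0066, -0.028 and 0.019, and differently numbered ones -0.071 to 0.089. So few values cannot decide by themselves whether libraries are paired. With the replicate block there were 17 higher and 21 lower, the added one being Gap43 (log2 fold change -0.28). No sex call was made in any setting run. Differences in isotype share, in percentage points adult minus E14.5, depended on the unit. With RPM in place of RPKM they were -24.0 for Tuba1a (-18.6 as reported), -4.69 for Tuba1b (-0.97), -14.2 for Tuba1c (-8.92), 42.0 for Tuba4a (27.6), -19.5 for Tubb2b (-21.4), -2.33 for Tubb3 (-4.47), 33.5 for Tubb4a (32.7), -22.8 for Tubb5 (-17.9) and -0.26 for Tubb6 (-0.36), because RPM is not per length. With pseudogene counts added they were -7.27 for Tuba1a, -5.78 for Tuba1b, -4.31 for Tuba1c, 16.8 for Tuba4a, 0.565 for Tuba8, -22.5 for Tubb2b, 31.1 for Tubb4a and 8.63 for Tubb4b (6.73 as reported). In the gamma-tubulin ring complex 2 genes were higher with RLE scaling and 7 lower with total counts only, and of LIS1 and NDEL1 partners 2 were higher with total counts only; the cause was not tested. The pair ratios kept their direction in every setting run. Depth limits Tuba8, with 8 counts over the E14.5 libraries, and the counts held by pseudogenes matched to Tuba1b leave its level uncertain.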
